A study of Mus musculus with 8 samples.

Results

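A set of 10 genes that serve meiosis or the germline, *Sycp1*, *Sycp2*, *Sycp3*, *Hormad1*, *Smc1b*, *Stag3*, *Rec8*, *Dazl*, *Ddx4* and *Mael*, was followed in mouse embryos of wild-type genotype at E8.5. They were picked by symbol for their roles, and every probe whose RefSeq accession belongs to one of them was kept, which gave 11 of the 55681 different probes on the array. Each gene had 1 probe, except *Hormad1* with 2. Genes of this kind are usually called silent in tissue of the embryo outside the germline, and whether that name holds here was not tested. The scanner's detection flag passed 5 of the 11 probes in all 8 embryos (45.5%), near the 49.5% of all probes on the array. The flag also passed 52 to 538 of 1446 probes for olfactory and vomeronasal receptors per array, so it does not by itself show expression. Probes of 5 of the 10 genes (*Sycp3*, *Stag3*, *Rec8*, *Ddx4* and *Mael*) were well above background in all 8 embryos, *Smc1b* was so in 7 and *Sycp1* in 5. *Hormad1* was detected in 1 embryo by 1 of its probes, and *Sycp2* and *Dazl* in 0 of 8.

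The study asked whether low function of *Eed* in the father's germline alters gene regulation in offspring. *Eed* is the subunit of Polycomb repressive complex 2 that reads and propagates H3K27 trimethylation, and the colony carried a hypomorphic allele (Eedl7Rn5-1989SB). The study's main comparison was of heterozygous offspring of homozygous and heterozygous males, while the arrays here compare offspring that do not inherit the allele. All 8 embryos were wild type for *Eed*, on a C57bl6/129 background, with wild-type mothers, and were matched for stage and size. The study's accounts give the mothers either as of the same background or as C57bl/6J. They were sired by heterozygous *Eed* hypo/wt males (n = 4) or by wild-type *Eed* wt/wt males (n = 4), and by the labels 2 embryos of each group were female and 2 male. The mutation had been induced chemically, the colony also carried a randomly integrated *Oct4*GFP transgene, and some embryos within a group may share a father, since the accounts of how many males were used differ and 3 of the 4 embryos of wild-type fathers carry codes with the same start. Total RNA of each embryo was labelled with Cy3 and hybridised to its own array on an Agilent 8x60K slide, and since each father group had a slide to itself, an effect of the slide cannot be told apart from one of the father.

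In meiosis, sister chromatids are held together by a cohesin ring in which germline subunits replace some of the somatic ones. The paired homologues are zipped by the synaptonemal complex, built on an axis of SYCP and HORMAD proteins. Germ cells also depend on RNA-binding proteins such as DAZL, the helicase DDX4 and the piRNA factor MAEL, which restrain transposons and license the germline programme. In the embryo, primordial germ cells are a very small population set aside around gastrulation, and the somatic lineages hold many germline promoters shut by DNA methylation of CpG-dense sequence and by a variant Polycomb complex, PRC1.6, whose MGA and MAX subunits recognise the E-box CACGTG and whose E2F6 subunit recognises E2F sites such as GCGGGAA.

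The promoters of the 10 genes shared these features in uneven measure. RefSeq windows on mouse build GRCm38.p6, each reaching from 250 bases before to 50 bases after the gene's start, were read for all 10 genes. *Hormad1* has 2 windows in that table, and the first was used. The windows held a median of 24 CpG dinucleotides, against a median of 7 and an upper quartile of 20 over all 32851 windows, and 7 of the 10 genes reached that quartile. *Ddx4* had the most CpGs with 38, followed by *Stag3* with 30, *Smc1b* with 29 and *Dazl* with 28, and *Sycp2* had the fewest with 10. The E-box CACGTG, which reads the same on either strand, was present in 6 windows (*Sycp1*, *Sycp3*, *Hormad1*, *Stag3*, *Ddx4* and *Mael*), while 7.15% of all windows hold it. The E2F motif GCGGGAA, searched on both strands, was present in 5 windows (*Sycp3*, *Hormad1*, *Smc1b*, *Stag3* and *Ddx4*), while 4.6% of all windows hold it. The 2 motifs share no bases in these windows, and 4 genes held both, against 0.457% of all windows. CpG-dense sequence holds both words more often, and among the 11378 windows with at least 15 CpGs, a limit chosen after the values were seen, 11.3% held the E-box, 10.3% the E2F motif and 1.12% both, while 9 of the 10 genes are among those windows. A match is only a run of letters and was not tested for binding.

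**Figure D1:**
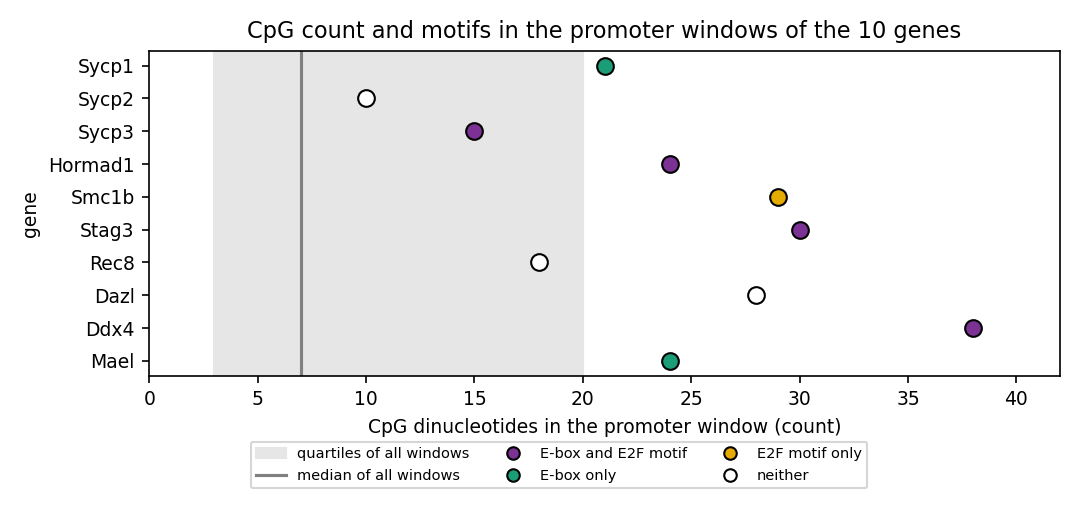
CpG dinucleotides (x axis, count) in the 300-base promoter window of each gene (y axis), with the colour of the point giving which motif the window holds. The grey band spans the quartiles (3 to 20) and the grey line the median (7) of all 32851 windows. All 10 genes lie above the median, and *Sycp2* with 10, *Sycp3* with 15 and *Rec8* with 18 lie inside the band.

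Of the windows, 6 are shown, the 4 that hold both motifs and, for contrast, *Rec8*, which was highest in the males of heterozygous fathers, and *Dazl*, which was not detected. Each runs 5′ to 3′ from 250 bases before to 10 bases after the start in the direction of the gene, and capitals mark the E-box and the E2F motif, the second on either strand.
Sycp3, chr10:88459337-88459596, plus strand: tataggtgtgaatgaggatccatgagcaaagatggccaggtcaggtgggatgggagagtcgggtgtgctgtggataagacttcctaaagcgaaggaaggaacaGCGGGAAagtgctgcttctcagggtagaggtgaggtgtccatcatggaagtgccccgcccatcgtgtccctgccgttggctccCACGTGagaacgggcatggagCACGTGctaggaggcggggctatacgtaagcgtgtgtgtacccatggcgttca
Hormad1, chr3:95559427-95559686, plus strand: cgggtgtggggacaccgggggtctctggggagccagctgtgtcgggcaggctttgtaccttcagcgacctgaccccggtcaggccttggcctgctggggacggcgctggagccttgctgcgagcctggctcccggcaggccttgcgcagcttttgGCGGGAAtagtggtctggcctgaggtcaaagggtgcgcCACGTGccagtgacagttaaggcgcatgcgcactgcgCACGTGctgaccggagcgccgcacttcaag
Stag3, chr5:138280259-138280518, plus strand: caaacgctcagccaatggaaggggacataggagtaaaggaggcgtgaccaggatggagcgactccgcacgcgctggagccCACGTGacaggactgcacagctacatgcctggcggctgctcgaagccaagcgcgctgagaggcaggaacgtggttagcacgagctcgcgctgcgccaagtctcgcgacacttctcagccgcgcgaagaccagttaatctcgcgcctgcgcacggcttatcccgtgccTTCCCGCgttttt
Ddx4, chr13:112652301-112652560, minus strand: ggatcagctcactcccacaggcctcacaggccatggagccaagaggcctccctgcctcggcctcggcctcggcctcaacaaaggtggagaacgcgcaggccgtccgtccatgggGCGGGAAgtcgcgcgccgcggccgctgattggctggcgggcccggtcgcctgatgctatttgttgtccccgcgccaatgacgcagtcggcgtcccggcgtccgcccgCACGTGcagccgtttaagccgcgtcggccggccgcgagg
Rec8, chr14:55617916-55618175, plus strand: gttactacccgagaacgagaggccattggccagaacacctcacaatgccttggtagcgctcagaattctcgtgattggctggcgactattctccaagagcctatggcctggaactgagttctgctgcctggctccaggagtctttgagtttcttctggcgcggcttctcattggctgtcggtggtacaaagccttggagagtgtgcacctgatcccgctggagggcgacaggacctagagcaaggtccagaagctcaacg
Dazl, chr17:50293611-50293870, minus strand: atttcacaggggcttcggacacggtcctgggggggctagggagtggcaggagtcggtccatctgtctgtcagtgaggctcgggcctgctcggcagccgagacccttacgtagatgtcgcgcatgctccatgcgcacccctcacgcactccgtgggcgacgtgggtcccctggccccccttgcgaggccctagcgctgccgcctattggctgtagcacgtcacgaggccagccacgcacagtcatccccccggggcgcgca
In *Sycp3* the E-boxes begin 64 and 43 bases before the start, in *Hormad1* 57 and 20, in *Ddx4* 29 and in *Stag3* 170. The E2F motif of *Stag3* lies on the reverse strand and spans the start, beginning 3 bases before it. The windows of *Rec8*, *Dazl* and *Sycp2* held neither motif. Detection varied within each motif class: *Stag3*, *Ddx4* and *Sycp3*, which hold both, were detected in all embryos, *Hormad1*, which also holds both, in 1, and of the 3 genes with neither, *Rec8* was detected in 8 embryos and *Sycp2* and *Dazl* in 0.

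The values are log2 of the background-subtracted spot intensity minus the array's 75th percentile, so that 0 is the 75th percentile of that array, and a probe is called well above background where the scanner software flagged its spot as such. A probe's level cannot be set against another probe's, because probes differ in how well they bind. With 4 arrays a group, the number of arrays sets how precise any comparison can be. Between 29203 and 39530 probes were well above background per array. The lowest value so flagged was -6.15 to -5.41 with wild-type and -5.16 to -4.32 with heterozygous fathers. The log2 median of the negative control spots, before the shift, was 2.08 to 2.31 and 2.50 to 3.17. Counts of detected probes are therefore not on the same footing in the 2 father groups. Replicate 1 of the wild-type fathers and replicate 3 of the heterozygous fathers stood apart: 471 and 538 of 1446 probes for olfactory and vomeronasal receptors, which an embryo of this age should scarcely use, were well above background there, against 52 to 184 in the other 6 embryos. The sex labels were borne out, since a *Xist* probe lay between 1.00 and 1.38 in the 4 females and was not above background in any of the 4 males, and *Ddx3y* lay between 1.32 and 1.48 in the males and was not above background in any female. *Eed* itself was well above background in all 8 embryos, with a log2 difference of -0.11 (SE 0.06, limma adjusted p = 1) between the father groups. In whole embryos, fewer cells of a type and less RNA per cell cannot be told apart.

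Between 6 and 7 of the 11 probes were well above background in each embryo. Over the 8 embryos, 5 of 11 probes (45.5%) were detected in all, against 49.5% of all probes on the array, and 3 of 11 (27.3%) in none, against 20.4%. The detected share of these genes was thus near that of the whole array. Without the 2 arrays that stood apart, 5 of the 11 probes were again detected in all 6 remaining embryos, against 50.4% of all probes, and 4 in none, since the single detection of *Hormad1* lay on one of those arrays.

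**Figure D2:**
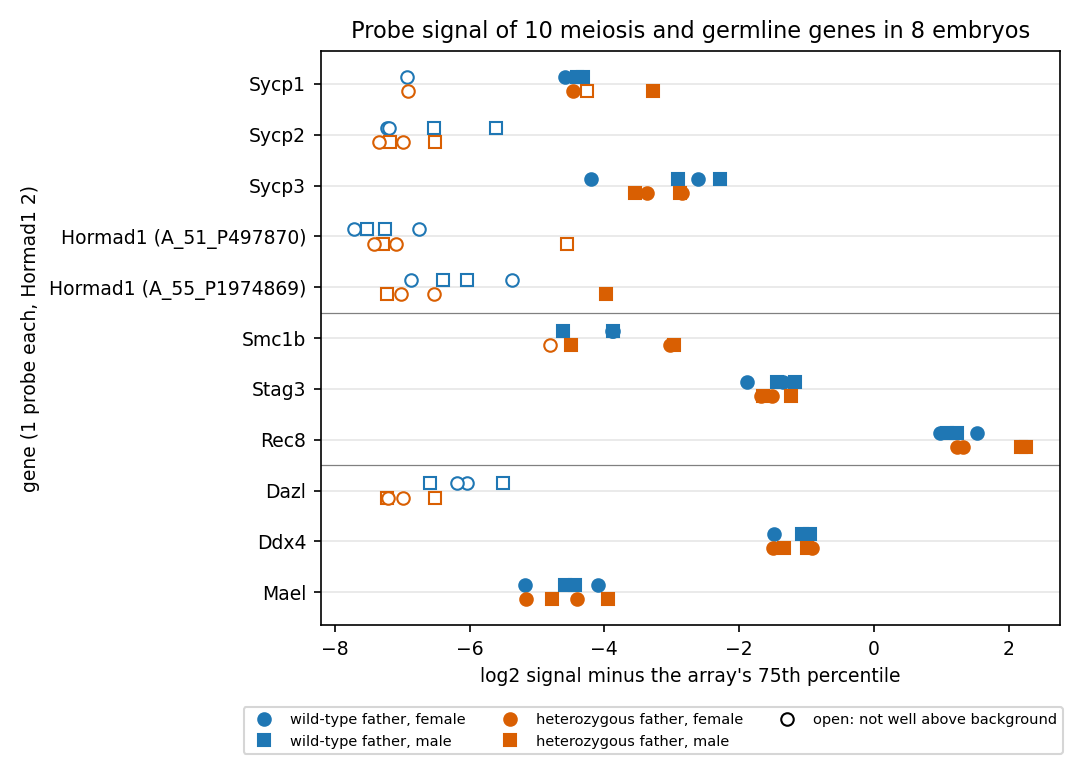
Log2 signal minus the array's 75th percentile (x axis) for each probe (y axis) in the 8 embryos, with blue for wild-type and orange for heterozygous fathers, circles for females and squares for males, and open points where the probe was not well above background. *Sycp2* and *Dazl* have only open points, and the 2 male *Rec8* points of heterozygous fathers (2.26 and 2.18) lie to the right of all others. Positions can be compared along a row, not between rows.

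Of the 4 genes of the synaptonemal complex and its axis among the 10, *Sycp3*, which forms the lateral elements, was the only one detected in every embryo. Its signal was -4.20, -2.29, -2.61 and -2.91 in replicates 1 to 4 of the wild-type fathers and -3.54, -3.36, -2.87 and -2.85 in those of the heterozygous fathers. Replicate 1 of the wild-type fathers was the lowest, and the second group lay inside the range of the first. *Sycp1*, the transverse filament, gave -4.58, -4.32, -6.93 and -4.40 with wild-type fathers and -3.28, -6.91, -4.26 and -4.46 with heterozygous fathers. A single female of each group fell to about -6.9, and these 2 and replicate 3 of the heterozygous fathers were not well above background. *Sycp2*, the partner of SYCP3 in the lateral element, stayed between -7.35 and -5.60 and was not well above background on any array. *Hormad1*, which marks unsynapsed axes, was read by 2 probes that disagreed in 1 embryo. The first, A_51_P497870, lay between -7.71 and -4.56 and was not well above background on any array. The second, A_55_P1974869, lay between -7.22 and -3.97 and passed only in replicate 3 of the heterozygous fathers. Both probes had their highest value in that embryo, one of the 2 whose receptor probes were raised.

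Of the meiotic cohesin subunits, *Stag3*, the germline counterpart of STAG1 and STAG2, was steady. Its signal was -1.88, -1.17, -1.35 and -1.43 with wild-type fathers and -1.65, -1.51, -1.23 and -1.67 with heterozygous fathers, a spread of 0.72 over the 8 embryos. *Smc1b*, the meiotic SMC1, gave -3.88, -4.62, -3.87 and -3.87 with wild-type fathers and -4.50, -3.03, -2.96 and -4.80 with heterozygous fathers. Its values with heterozygous fathers reached beyond those with wild-type fathers on both sides, and only replicate 4 of the heterozygous fathers was not well above background.

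*Rec8*, the meiotic kleisin that closes the ring, was detected in every embryo. Its signal was 0.98, 1.09, 1.53 and 1.23 with wild-type fathers and 2.26, 1.32, 2.18 and 1.23 with heterozygous fathers. The 2 highest embryos, at 2.26 and 2.18, were the 2 males of heterozygous fathers, and the other 6 lay between 0.98 and 1.53. The means were 1.21 ± 0.24 (SD, n = 4) and 1.74 ± 0.55 (SD, n = 4), and the groups overlapped. The log2 difference of 0.54 (95% confidence interval -0.10 to 1.18) had an adjusted p of 1 from limma and an unadjusted p of 0.0858. It was 0.32 without the 2 arrays that stood apart.

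Of the germ cell RNA regulators, *Ddx4*, the DEAD-box helicase of germ granules known as VASA, was detected in every embryo. Its signal was -1.48, -0.95, -0.98 and -1.07 with wild-type fathers and -0.99, -1.50, -1.34 and -0.92 with heterozygous fathers, the narrowest spread of the 11 probes (0.58). *Mael*, needed for piRNA-guided silencing of transposons, gave -4.09, -4.58, -5.18 and -4.43 and then -4.78, -5.16, -3.94 and -4.41. The 2 groups covered nearly the same range. In replicate 2 of the heterozygous fathers its -5.16 was at the lowest level flagged on that array. *Dazl*, which promotes translation of germ cell mRNAs, lay between -6.58 and -5.51 with wild-type and between -7.23 and -6.51 with heterozygous fathers. None of these 8 values was well above background, so no order between them was read.

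The comparison of father groups called 0 of the 33093 tested probes at an adjusted p under 0.01 and at least 2-fold (percent called 0), with 1436 (4.34%) at an unadjusted p under 0.05 and a smallest adjusted p of 0.223. Of the 11 probes, 7 passed the filter on low signal, which needs a probe to be well above background on at least 4 arrays, and the 4 of *Sycp2*, *Hormad1* and *Dazl* did not. None of the 7 was called, none had an unadjusted p under 0.05, and the groups of all 7 overlapped, against 3.15% of all tested probes whose groups did not. Of the 7, 3 were higher and 4 lower with heterozygous fathers, with a median log2 difference of -0.004 against -0.002 over all tested probes. The differences were -0.15 for *Sycp3* (95% confidence interval -1.11 to 0.81), -0.06 for *Stag3* (-0.46 to 0.34), -0.07 for *Ddx4* (-0.47 to 0.34) and -0.004 for *Mael* (-0.74 to 0.73). *Sycp1* (0.33, interval -1.75 to 2.41) and *Smc1b* (0.24, interval -0.85 to 1.33) had the widest intervals of the 7. All but *Rec8* changed sign with some single embryo left out. For *Stag3*, *Ddx4* and *Mael* these intervals leave out a 2-fold difference in either direction, and for the other 4 they do not. They treat the embryos as independent and cannot part the slide from the father. They also depend on the scaling: after a shift by the array median the SE was 0.39, 0.44 and 0.35 for these 3, against 0.17, 0.17 and 0.31.

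**Figure D3:**
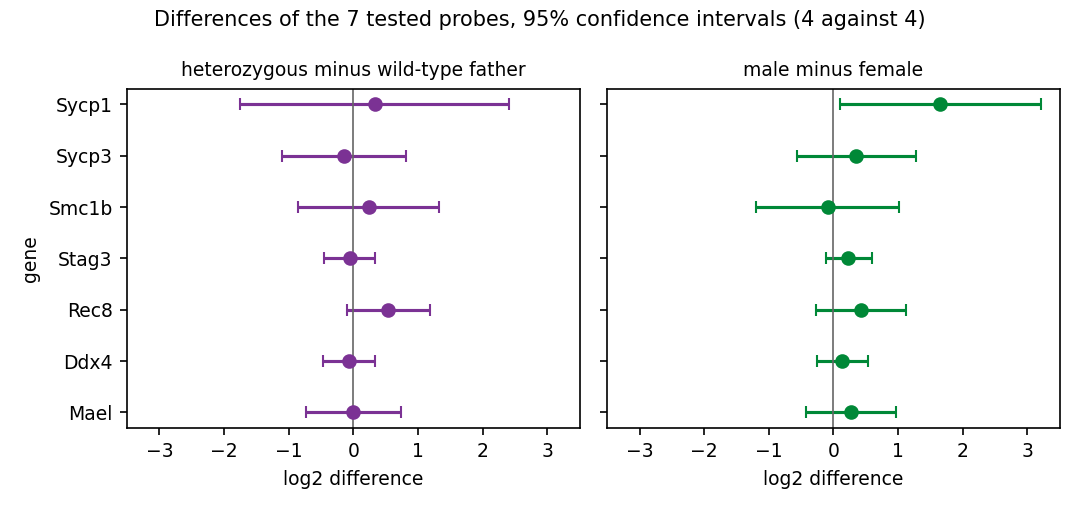
Log2 differences (x axis) of the 7 tested probes (y axis), between father groups on the left and between the sexes on the right, with 95% confidence intervals from limma and 4 embryos on each side. Every interval on the left holds 0, and on the right only that of *Sycp1* (0.10 to 3.21) lies clear of it.

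Between the sexes 13 of 33093 probes (0.0393%) were called, and 0 of the 7 were among them. The *Sycp1* values lay between -4.40 and -3.28 in the 4 males and between -6.93 and -4.46 in the 4 females, a fitted log2 difference of 1.65 (SE 0.66), but 3 of the 8 values were not well above background, so that neither its size nor the order of these embryos was read. Its unadjusted p was 0.0396, where 3.39% of all tested probes were under 0.05, and its adjusted p from limma was 0.999. The sexes did not overlap for 2.75% of all tested probes. The probe was well above background in 3 males and 2 females. The highest female and the lowest male lay close together, and the 2 females near -6.9, which stood farthest from the rest, were not well above background. The difference was 0.34 (SE 0.23) with normexp and 1.12 (SE 0.75) with quantile normalization, and its unadjusted p was not under 0.05 in either of these or with father in the fit. Of the 7 probes, 6 were higher in males, with a median of 0.27 against 0.03 over all tested probes, of which 57.7% were higher in males. After a shift by the array median instead, 5 were higher in males, with a median of 0.11 while that of all tested probes was -0.14.

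The test of whether the difference between fathers depends on sex gave *Rec8* an unadjusted p under 0.05 that did not survive adjustment. The mean was 2.22 in males of heterozygous fathers, 1.27 in their females, 1.16 in males of wild-type fathers and 1.25 in their females (n = 2 each). Of the 2 males of heterozygous fathers, the one at 2.18 was replicate 3, whose array stood apart. The interaction was 1.04 on the log2 scale (SE 0.28, 95% confidence interval 0.33 to 1.74, unadjusted p = 0.012, adjusted p = 0.995 from limma), while 2.27% of all tested probes reached an unadjusted p under 0.05 and 0 were called. With each embryo left out in turn it stayed between 0.76 and 1.31. After a shift by the array median it was 0.23, a setting that moved the median interaction of all tested probes from 0.07 to -0.73.

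**Figure D4:**
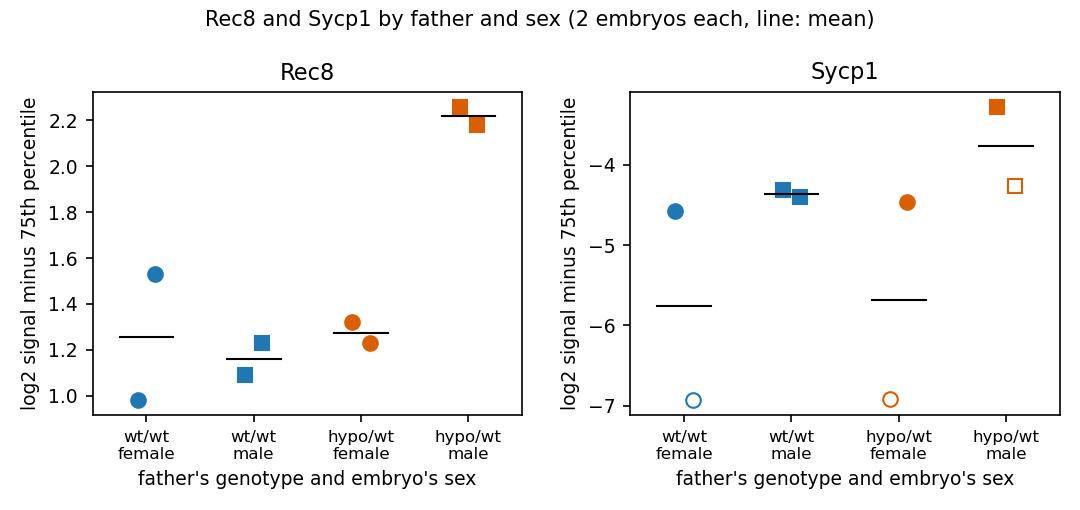
Log2 signal minus the 75th percentile (y axis) of *Rec8* (left) and *Sycp1* (right) by father's genotype and embryo's sex (x axis), with 2 embryos per column, a line at their mean and open points where the probe was not well above background. *Rec8* is highest in the 2 males of heterozygous fathers, and *Sycp1* lies near -6.9 in 1 female of each father group. The array of 1 of these males, replicate 3, stood apart.

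Other germline genes were detected in part. Of 55 further genes of the synaptonemal complex, meiotic recombination, entry into meiosis and the piRNA pathway, 49 had a probe, and 20 of these had one well above background in all 8 embryos, while 5 (*Gtsf1*, *Mei4*, *Meikin*, *Piwil1* and *Tdrd6*) were not detected in any. By probe, 22 of 62 (35.5%) were detected on all 8 arrays, below the 49.5% of all probes. Without the 2 arrays that stood apart, 22 genes were detected in all 6 and 10 in none. Of the 62 probes, 37 were tested and 0 were called, with a median log2 difference between father groups of -0.01 and a range from -0.74 to 1.02. Of the genes detected in all embryos, *Syce1*, *Syce2* and *Fkbp6* belong to the synaptonemal complex or its assembly. *Msh5*, *Mlh3*, *Mei1*, *Rec114*, *Prdm9*, *Trip13*, *Psmc3ip*, *Mnd1*, *Tex15* and *Brdt* act in recombination or chromatin of meiotic cells, *Ythdc2* and *Rnf17* were listed with meiotic entry, and *Tdrd5*, *Tdrkh*, *Pld6*, *Ddx25* and *Taf7l* with the piRNA pathway and germ granules. *Trip13*, *Psmc3ip*, *Mnd1* and *Mlh3* are also used by dividing or repairing somatic cells. The second probes of *Prdm9*, *Tex15* and *Brdt* were well above background in 5, 0 and 2 embryos. *Brdt*, a testis bromodomain protein, was the only one of the list at an unadjusted p under 0.05, where 4.34% of all tested probes were. Its brighter probe lay between -2.79 and -2.12 with wild-type and between -2.34 and -1.54 with heterozygous fathers, a log2 difference of 0.68 (SE 0.23, unadjusted p = 0.0187, limma adjusted p = 1).

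**Figure D5:**
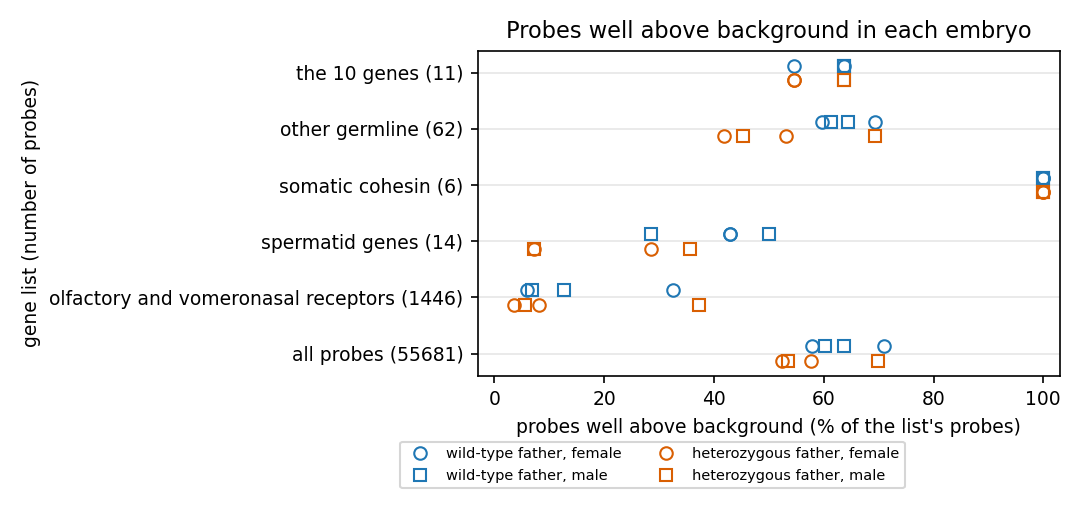
Share of each list's probes that were well above background (x axis, percent) in each of the 8 embryos, by list (y axis, with the number of probes), blue for wild-type and orange for heterozygous fathers, circles for females and squares for males. The 10 genes lie between 54.5% and 63.6% in all embryos, somatic cohesin at 100%, and receptors and all probes are highest in the 2 embryos that stood apart.

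The somatic cohesin subunits were detected throughout. All 6 probes of *Smc1a*, *Smc3*, *Rad21*, *Stag1* and *Stag2* were well above background in all 8 embryos, and their log2 differences between father groups lay between -0.13 and 0.13. The 8 genes of PRC1.6 were likewise detected by all 9 probes, with differences between -0.15 and 0.10. They were -0.14 for *E2f6* (SE 0.11), -0.11 for *Mga* (SE 0.12), -0.09 for *Pcgf6* (SE 0.08) and -0.10 for *L3mbtl2* (SE 0.10), and limma gave all 4 an adjusted p of 1.

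Late spermatid genes, which serve as a list that an embryo should not use, were detected less evenly. Of the 14 probes of 12 genes, 1 was well above background in all embryos and 6 in none, and the number per embryo was 4 to 7 with wild-type and 1 to 5 with heterozygous fathers. The total number of probes above background also had a higher median with wild-type fathers (34496) than with heterozygous fathers (30924). The lowest level flagged also differed between the groups, at -6.15 to -5.41 and -5.16 to -4.32. The part of both in the spermatid counts was not tested. *Prm1*, which packs sperm DNA, was the one detected in all 8, between -3.87 and -1.69 with wild-type and between -2.83 and -0.58 with heterozygous fathers. *Prm2* and *Tssk1* were detected in 6 embryos, *Tnp1* and *Spem1* in 4, and 0 of the 5 tested probes were called.

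Probes for marker genes of primordial germ cells were also detected. Of 9 marker genes, 8 (*Prdm1*, *Prdm14*, *Tfap2c*, *Nanos3*, *Dnd1*, *Kit*, *Ifitm3* and *Alpl*) were well above background in all embryos, and *Dppa3* was so in 6. Several of these, such as *Kit* and *Alpl*, are also used by somatic cells. *Prdm14* and *Dppa3* had low signal, with means of -4.10 and -4.56 with wild-type and -4.06 and -4.95 with heterozygous fathers. The log2 of the list's summed signal was 3.62 to 3.85 with wild-type and 3.60 to 4.11 with heterozygous fathers. The sum includes genes that somatic cells use, so it does not measure germ cells alone. *Nanos3*, which protects migrating germ cells from death, lay between 0.30 and 0.43 and between 0.39 and 0.64, a log2 difference of 0.22 (unadjusted p = 0.0268, limma adjusted p = 1). Beside this and the unadjusted values that follow, 4.34% of all tested probes were under 0.05. All 12 probes of E8.5 embryo markers such as *T*, *Tbx6* and *Hbb-bh1* were detected in all embryos, and so were all 7 of visceral yolk sac endoderm. Both probes of *Pax3*, a factor of the neural tube and somites, had a log2 difference of -0.23 (SE 0.09 each, unadjusted p = 0.0298 and 0.0313, limma adjusted p = 1). All 6 decidua probes were detected in all embryos. *Prl8a2*, a decidual prolactin, lay between 1.80 and 3.14 with wild-type and between -2.38 and 0.97 with heterozygous fathers (log2 difference -2.46, SE 0.75, unadjusted p = 0.0126, limma adjusted p = 1), and the summed decidua signal was 3.32 to 4.03 and 2.98 to 3.36. The decidua sum includes *Prl8a2*, while the other decidua probes had log2 differences between -0.11 (*Des*) and 0.20 (*Wnt4*). The summed signal of trophoblast markers was 4.94 to 6.39 and 5.13 to 6.54, with *Tpbpa* not above background in any embryo. The part of maternal or trophoblast tissue in the values of the 10 genes was not tested.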

How the data were processed

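Single whole embryos were hybridised to one-colour Agilent arrays. The spot intensity in the deposited scanner files was extracted by the authors with Agilent Feature Extraction 11.0.1.1, which subtracted the local background and removed spatial trends, without scaling one array to another. Other deposited columns flag spots well above background. An intensity table of the whole series, also deposited, holds these values rounded and served as an alternative (unused columns of sample values: 0). The array's own annotation is on build mm9, and no genome of that build was used.

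After removal of control spots, which left 59305, and of spots flagged as outliers, log2 processed intensity was averaged over the spots of each probe. The probe values were then centred on their 75th percentile on each array. The study's methods name a percentile shift but not the percentile. A probe entered the test if its mean was outside the lowest 20% and at least 4 arrays had it well above background, which gave 33093 probes. limma 3.58.1 (R 4.3.3, with version 1.17.8 of the data.table package) was fitted to all of them, p-values were adjusted over all of them by Benjamini-Hochberg, and a call needed an adjusted p below 0.01 together with a change of 2-fold or more. The p-values measure only the spread between these embryos, some of which may share a father. RefSeq gave symbols for 27235 of the 28685 probes with a RefSeq accession, and the promoter windows (GRCm38.p6). Python 3.11.15, numpy 2.4.6, pandas 2.3.3 and matplotlib 3.10.9 made summaries and figures.

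The 10 genes and all lists were chosen with earlier results of these data known. Named besides the 10 were the somatic cohesin genes, 4 of PRC1.6, other germline genes detected on all 8 arrays or among the 3 largest changes at an unadjusted p under 0.05, spermatid genes detected on at least 4 arrays, and cell type markers. The test was checked on simulated data. Alternatives covered the background correction (normexp, offset 50) and scaling, the filter, outlier spots, the series table, terms for sex or father, replicate number and embryo code, the moderation, array weights, a looser threshold, and single embryos left out. Leaving out the 2 arrays that stood apart, refitting the interaction without single embryos and the CpG-dense windows were added after seeing the data.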

Additional observations from a re-analysis of the deposited data

Results flagged for a closer look

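In 3 of 22 groups of 4 embryos, the highest or lowest value of a probe stood so far from its neighbour that the gap passed Dixon's 95% critical value for its share of the group's whole range, where chance gives about 1 in 20. *Smc1b* was at -4.62 in replicate 2 of the wild-type fathers, well above background, while the other 3 lay between -3.88 and -3.87 (ratio 0.992). *Sycp1* was at -6.93 and not well above background in replicate 3 of the wild-type fathers, with the other 3 between -4.58 and -4.32 (ratio 0.9). *Hormad1* (A_51_P497870) was at -4.56 in replicate 3 of the heterozygous fathers, with the other 3 between -7.42 and -7.09 (ratio 0.882), and none of the 4 values was well above background. That last embryo is one of the 2 whose receptor probes were raised.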

How the results depend on the processing

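The counts of the 10 genes' probes called between father groups, between the sexes and for the interaction were 0 under every alternative run, and the smallest adjusted p of any of them in the comparison of fathers was 0.279 (*Dazl* with no filter, a probe not above background on any array). The number detected in all embryos was 5, or 7 where a spot needed only to be significantly above its background. Over all probes, the count between father groups was 0 to 1 with single embryos left out (1 when either replicate 1 of the wild-type or replicate 4 of the heterozygous fathers was dropped) and 1 without wild-type father replicate 1 and heterozygous father replicate 3 together. Between the sexes it was 1 when only probes detected on all 8 arrays were tested, which leaves out genes of a single sex, 2 with the replicate block, and 8 to 13 with single embryos left out (8 when either replicate 3 of the wild-type or replicate 2 of the heterozygous fathers was dropped). The labels do not say whether same-numbered embryos are paired. Their deviations from the group means correlated between -0.587 and -0.0452, and no embryo matched its own number best. With 4 embryos a group, and deviations taken from each group's own mean, these values cannot decide it. With the replicate block the comparison of fathers called 0 probes. The small differences between father groups changed sign in places, and the cause was not tested. With array weights *Sycp1* was -0.06. A random block for the embryo code gave *Sycp3* 0.10, *Stag3* 0.03 and *Ddx4* 0.01. With normexp *Smc1b* was -0.03 and *Ddx4* 0.003. With single embryos left out the differences ranged from -0.30 to 1.05 for *Sycp1*, -0.55 to 0.09 for *Sycp3*, -0.05 to 0.56 for *Smc1b*, -0.20 to 0.04 for *Stag3*, -0.19 to 0.04 for *Ddx4* and -0.22 to 0.19 for *Mael*. *Rec8* stayed positive under all 22 alternatives, between 0.37 and 0.71 with single embryos left out. Several alternatives, such as those of the filter and the moderation, cannot move the difference of a probe, which stayed at 0.54 there. The alternatives also reuse the same embryos, so they are not separate checks. The sex difference of *Sycp1* was 1.25 to 2.07 with single embryos left out, but 0.34 with normexp and 1.12 with quantile normalization, against 1.65. Without the 2 arrays that stood apart, *Sycp3* (-0.65) and *Stag3* (-0.29) had unadjusted p of 0.0375 and 0.0291 and adjusted p from limma of 0.682 and 0.657. Where a single embryo of a father and sex was left, it was assumed to vary like the others. Signals near background limit what can be read for *Sycp1*, *Sycp2*, *Hormad1*, *Dazl* and *Mael*.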
